A study of Rattus norvegicus with 12 samples.

Results

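The globin genes of rat hippocampus were followed through chronic intermittent hypoxia (CIH), a treatment in which the oxygen supply is lowered in repeated cycles and which serves as a model of sleep apnoea. The genes were chosen by symbol: the haemoglobin beta chains Hbb (gene ID 24440) and Hbb-b1 (361619), the alpha chains Hba-a2 (360504) and Hba-a3 (287167), the erythroid haem enzyme gene Alas2 (25748), neuroglobin (Ngb, 85382) and cytoglobin (Cygb, 170520). All 7 were found among the 26949 genes of the RNA table, and all 7 passed the filter on low counts, which kept 17935 genes. The material was total RNA of hippocampus from male rats, with 3 RNA libraries from the CIH group, exposed for 4 weeks, and 3 from the control group, kept in normoxia for the same 4 weeks. Another 3 small RNA libraries per group hold the miRNAs. The labels give no strain, age, oxygen level or cycle length, and do not say whether blood was washed from the vessels.

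Adult haemoglobin is a tetramer of alpha and beta chains, each holding a haem, and carries oxygen in red cells. Young red cells (reticulocytes) still contain haemoglobin mRNA, so tissue that holds blood yields it too, and some brain neurons and glia are also known to transcribe haemoglobin genes. Neuroglobin and cytoglobin are single-chain relatives that stay inside cells: neuroglobin in neurons, most of all in hypothalamus and retina, and cytoglobin in fibroblast-like cells and some neurons, where it can turn nitric oxide into nitrate.

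The RNA libraries held 17170943 to 21941173 estimated counts and the small RNA libraries 4681163 to 4914232 counts. All 15 pairs of RNA libraries differed by more than sampling noise, but the most alike pair crossed the groups: control library 1 and CIH library 3, with a chi-square per degree of freedom of 6.97. The next was control libraries 2 and 3 at 13.1, and pairs within a group reached 63.1. The same 2 libraries were alone in holding more than a trace of Cd3e, a gene of the T cell receptor complex. Other T cell genes did not follow it: Cd3g had at most 1 count and Cd8a at most 3 counts in any library. The part of the likeness of these 2 libraries in the comparisons was not tested. Whether the 3 libraries of each group represent different animals is not stated, so p-values measure only the spread between libraries, which may be technical. Hippocampal markers were present: 16 of 17 field markers were tested, and Camk2a, Prox1 and Zbtb20 were among them. The summed CPM (counts scaled to a common, TMM-adjusted library total) of the 17 was 4891 to 8638 in control and 3805 to 8652 in CIH. CIH library 1 was the lowest of the 6 in it.

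None of the 7 genes differed between CIH and control by more than the spread between libraries. Hbb, Hbb-b1, Hba-a2, Hba-a3 and Alas2 had higher fitted levels in CIH and Ngb and Cygb lower ones, with a median log2 fold change of 0.25 against 0.0028 over all tested genes. edgeR's quasi-likelihood test called 0 of the 7 and 0% of all 17935 genes, with an adjusted p of 1.00 for each of the 7. At an unadjusted p under 0.05 the test found 0 of the 7 and 319 of all genes. DESeq2 called 10 genes and limma on TPM (a level corrected for gene length) called 1, none of them among the 7. The libraries of the groups did not overlap for 1 of the 7 genes, Hbb-b1, which was higher in CIH; over all tested genes 3.05% stood higher in CIH without overlap. Without control library 1 or CIH library 3, the pair most alike across the groups, the directions were the same and none of the 7 was called. Without control library 1 the log2 fold change was 0.28 for Hbb, 1.01 for Hbb-b1, 0.45 for Hba-a2, 1.88 for Hba-a3, 0.42 for Alas2, -0.12 for Ngb and -0.47 for Cygb. Without CIH library 3 it was 0.45 for Hbb, 0.84 for Hbb-b1, 0.51 for Hba-a2, 0.95 for Hba-a3, 0.71 for Alas2, -0.47 for Ngb and -0.16 for Cygb.

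**Figure D1:**
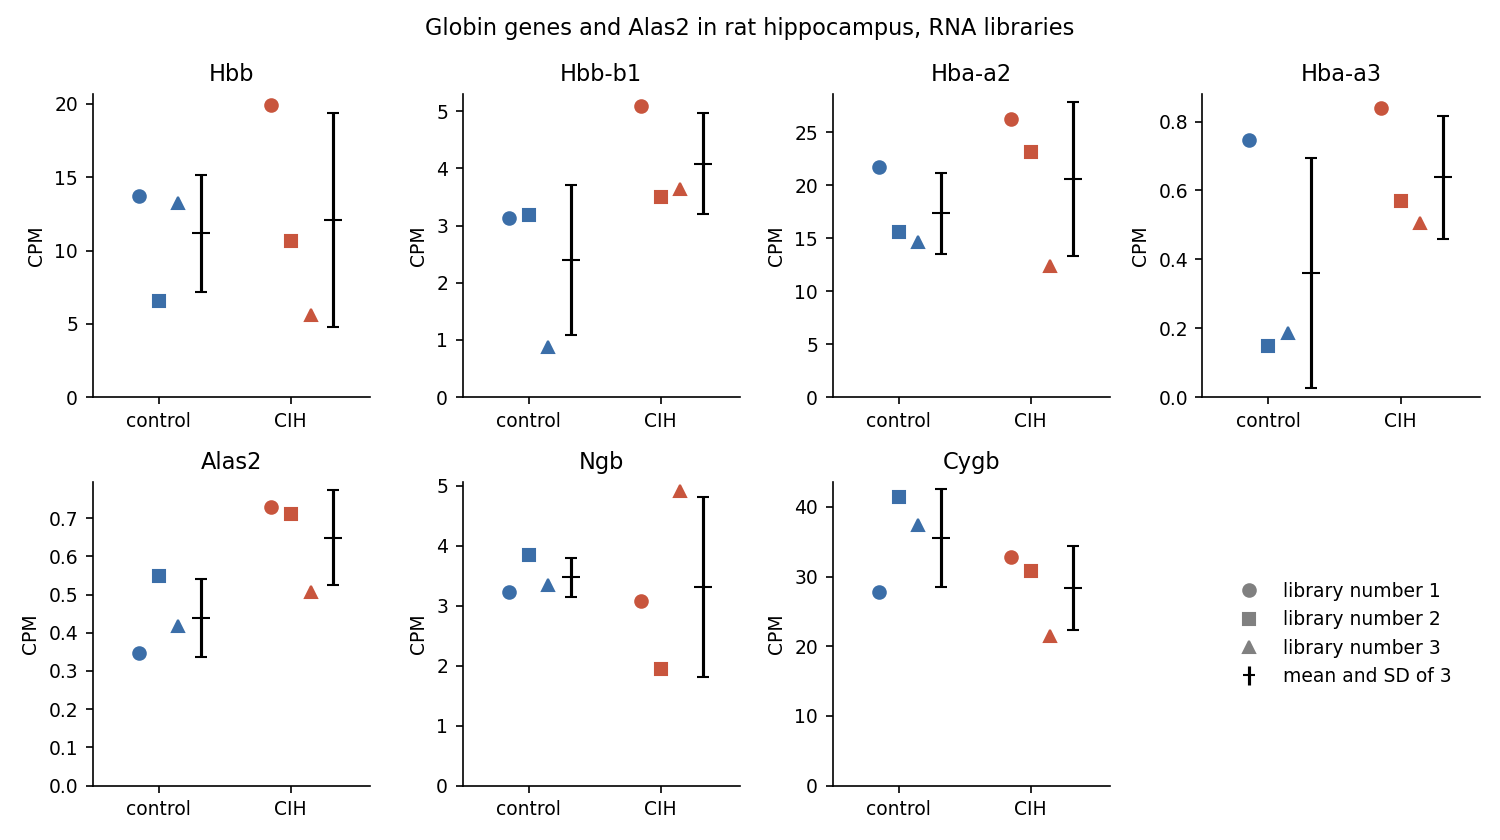
CPM of the 7 genes in each RNA library of the control and CIH groups, with the mean and SD of 3 libraries beside the points; each panel has its own linear axis from 0. All 4 haemoglobin chains were highest in CIH library 1, and Hbb-b1 alone showed no overlap between the groups.

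Compared per length, Hba-a2 stood highest of the 7, at a mean of 109 TPM over the 6 libraries. Hbb followed at 54.2 TPM, Cygb at 30.6 TPM, Hbb-b1 at 15.5 TPM, Hba-a3 at 4.45 TPM, Ngb at 4.11 TPM and Alas2 at 1.35 TPM. Hba-a2 exceeded Hbb, Cygb exceeded Hbb-b1, Hbb-b1 exceeded Hba-a3 and Ngb exceeded Alas2 in 6 of 6 libraries each. Hbb exceeded Cygb in 5 of 6, and Hba-a3 exceeded Ngb in only 3 of 6, so these neighbours were not separated in every library. Cytoglobin mRNA was thus at a level between those of the haemoglobin chains, while neuroglobin mRNA was low.

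The alpha chain gene Hba-a2 had 21.8, 15.6 and 14.6 CPM in control libraries 1, 2 and 3 and 26.3, 23.1 and 12.4 CPM in CIH libraries 1, 2 and 3. CIH libraries 1 and 2 stood above every control and CIH library 3 below every control. Hba-a2 averaged 17.3 ± 3.86 CPM without and 20.6 ± 7.29 CPM with CIH (SD, n = 3 each). The fitted log2 fold change was 0.25 (SE 0.30, 95% interval -0.46 to 0.96). Without CIH library 1 it was 0.03.

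Hba-a3, a minor alpha chain gene, rested on 15, 3 and 4 estimated counts in control and 14.9, 12 and 10 in CIH. Control library 1 lay among the CIH libraries, and the other control libraries lay below all of them. The exact 95% Poisson interval of 3 counts runs from 0.619 to 8.77 and that of 15 counts from 8.40 to 24.7, covering counting error only. Its log2 fold change was 0.82 (SE 0.64), and without control library 1 it was 1.88, with an adjusted p of 0.882 by edgeR.

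The beta chain gene Hbb had 13.7, 6.58 and 13.3 CPM in control and 20.0, 10.7 and 5.61 CPM in CIH. Its highest and lowest libraries were both CIH libraries, 3.55-fold apart. Hbb averaged 11.2 ± 3.99 CPM without and 12.1 ± 7.27 CPM with CIH (SD, n = 3 each), for a log2 fold change of 0.11 (SE 0.48). Its 95% interval ran from -1.03 to 1.25, so neither a doubling nor a halving lay outside it. The direction turned without control library 2 (-0.16) or CIH library 1 (-0.46).

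Hbb-b1, the adult beta chain gene next to Hbb-bs in the cluster, had 3.13, 3.19 and 0.881 CPM in control and 5.10, 3.51 and 3.64 CPM in CIH. Every CIH library lay above every control, by a margin of 3.51 against 3.19 CPM, and control library 3 was far below the rest. Hbb-b1 averaged 2.40 ± 1.32 CPM without and 4.08 ± 0.883 CPM with CIH (SD, n = 3 each), for a log2 fold change of 0.77 (SE 0.47). Its 95% interval was -0.35 to 1.88, and without control library 3 the estimate was 0.37.

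Adult haemoglobin genes outside the chosen set varied in different ways. Hba-a1 was the most abundant alpha chain gene, at 247 ± 72.0 TPM in control and 292 ± 108 TPM in CIH (SD, n = 3 each), with a log2 fold change of 0.25 (SE 0.31). Like Hba-a2 it was highest in CIH library 1 and lowest in CIH library 3. Hbb-bs stood at 0.41 (SE 0.46) and, like LOC100134871, was highest in CIH library 2. LOC100134871, which the RefSeq gene table of the GRCr8 assembly names Hbbl1, had 2.58, 3.54 and 1.07 CPM in control and 4.82, 5.36 and 4.50 CPM in CIH. Like Hbb-b1 it showed no overlap between the groups, with a log2 fold change of 1.03 (SE 0.41, adjusted p = 1.00 by edgeR). In that gene table Hbb-bs, Hbb-b1, Hbbl1, Hbb-b2 and Hbb follow each other in this order in the beta cluster, and Hba-a3, Hba-a2 and Hba-a1 lie in the alpha cluster. The other globins of the fixed list were low: myoglobin (Mb) had at most 1 count in a library, and Adgb, the androglobin gene, averaged 1.85 ± 0.516 CPM without and 1.30 ± 0.533 CPM with CIH (SD, n = 3 each). LOC103694855 had 18.4 estimated counts in control library 3, 4.38 in CIH library 2 and 0 elsewhere. LOC103694857 had 8.18 in control library 2, 8.05 and 15.1 in CIH libraries 1 and 3, and 0 elsewhere. Both were untested and are left out of the shares and sums below. Of that list's 18 symbols 8 were in the table and 4 were tested, 3 of them with higher fitted levels in CIH, with a median of 0.33.

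These gene copies resemble each other, and reads that fit several copies were divided among them. The deposited counts were not whole numbers in 6 of 6 libraries for Hbb and Hba-a2, in 5 of 6 for Hbb-b1 and in 1 of 6 for Hba-a3, and were whole in all 6 for Alas2, Ngb and Cygb. The values of haemoglobin copies are therefore uncertain singly. The windows just before the transcription starts give the likeness of the copies upstream. These bases lie before the transcript, so they do not show which copies share reads. Over 250 bases upstream, Hba-a2 and Hba-a1 were 96.4% identical, Hbb-b1 and LOC100134871 95.7%, and Hbb-b1 and Hbb-bs 93.6%. Hba-a2 and Hba-a3 were 65.5% identical and Hbb and Hbb-b1 60.9%, while Hbb and Ngb, which are not copies, reached 52.4% under the same alignment. The last 120 bases before the start are printed for the copies that were alike and unlike, and for Ngb, from RefSeq on GRCr8, minus strand, with motif matches in capitals.
Hbb, chr1:167663722-167663841: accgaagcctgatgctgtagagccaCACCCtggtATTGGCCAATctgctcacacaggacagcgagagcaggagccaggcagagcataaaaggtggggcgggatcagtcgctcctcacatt
Hbb-b1, chr1:167643521-167643640: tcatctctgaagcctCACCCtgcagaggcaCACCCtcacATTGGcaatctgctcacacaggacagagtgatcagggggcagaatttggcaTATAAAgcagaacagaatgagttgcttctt
LOC100134871, chr1:167650236-167650355: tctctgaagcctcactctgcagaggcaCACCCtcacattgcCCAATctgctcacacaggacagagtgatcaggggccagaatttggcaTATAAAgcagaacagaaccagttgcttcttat
Hba-a2, chr10:15829139-15829258: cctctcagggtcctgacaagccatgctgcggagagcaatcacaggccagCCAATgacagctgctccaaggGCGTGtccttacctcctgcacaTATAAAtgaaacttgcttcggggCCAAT
Hba-a1, chr10:15842581-15842700: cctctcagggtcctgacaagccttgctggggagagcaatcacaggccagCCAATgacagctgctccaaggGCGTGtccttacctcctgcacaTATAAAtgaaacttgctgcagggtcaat
Ngb, chr6:112480787-112480906: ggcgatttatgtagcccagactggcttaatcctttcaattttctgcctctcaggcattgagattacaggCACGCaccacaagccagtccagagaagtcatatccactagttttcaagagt

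Letters were searched on both strands. They were CACCC, the box CCAAT, the TATA box letters TATAAA, the GATA-type site AGATAA with its variant TGATAA, and the core of the hypoxia response element, spelled ACGTG or else GCGTG. None of the windows of these genes held ACGTG (16.6% of all promoter windows do). Overlapping matches were counted. The CCAAT matches of Hbb on opposite strands adjoin and share no base. CACCC, a box bound by erythroid KLF factors, lay 95 bases before the start of Hbb and 90, 105 and 141 bases before that of Hbb-b1. It also lay 149 bases before the start of Hba-a2 and Hba-a1, and 49.2% of 33469 promoter windows of 250 bases hold it. CCAAT lay 71 bases before the start of Hba-a2 and Hba-a1 (34% of windows). TATAAA lay 30 bases before the start of Hbb-b1 and 28 before that of Hba-a2 (12.9% of windows). GCGTG lay 50 bases before the start of Hba-a2 and on the other strand 51 bases before that of Ngb (25.9% of windows). In the window of Alas2, AGATAA lay 136 bases before the start (10.3% of windows). TGATAA lay 165 bases before the start of Hba-a2 and Hba-a1 and, on the other strand, 164 bases before that of Ngb (7.97%). Further matches in these windows are not listed here. A match describes these letters and is not a measured binding site. No window was used for Cygb.

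The alpha and beta families differed in how their copies shared the counts. Among the alpha chain counts of a library, the share of Hba-a1 was between 70.1% and 72.4% in all 6 libraries, and that of Hba-a2 between 26.7% and 29.3%. Among the beta chain counts, the share of Hbb ranged from 38.3% in CIH library 3 (95% Wilson interval 32.9% to 44.0%, counting error only) to 83.1% in control library 3 (78.8% to 86.7%). In control library 3 Hbb-b1 took 5.52% (3.56% to 8.47%) and LOC100134871 6.69%. In CIH library 3 they took 24.8% and 30.7%. Hbb took 64.5% and 45.1% in control libraries 1 and 2 and 62.8% and 48.8% in CIH libraries 1 and 2, so the groups overlapped. The makeup of beta chain counts thus varied between libraries of the same group by more than counting error. The intervals leave out error in dividing reads among the copies. The shares of Hba-a1 and Hba-a2 in alpha chain counts hardly varied. The part of read division in the alpha and beta shares was not tested. The small share of Hba-a3 ran from 0.281% in control library 2 (3 counts) to 1.12% in CIH library 3 (10 counts).

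**Figure D2:**
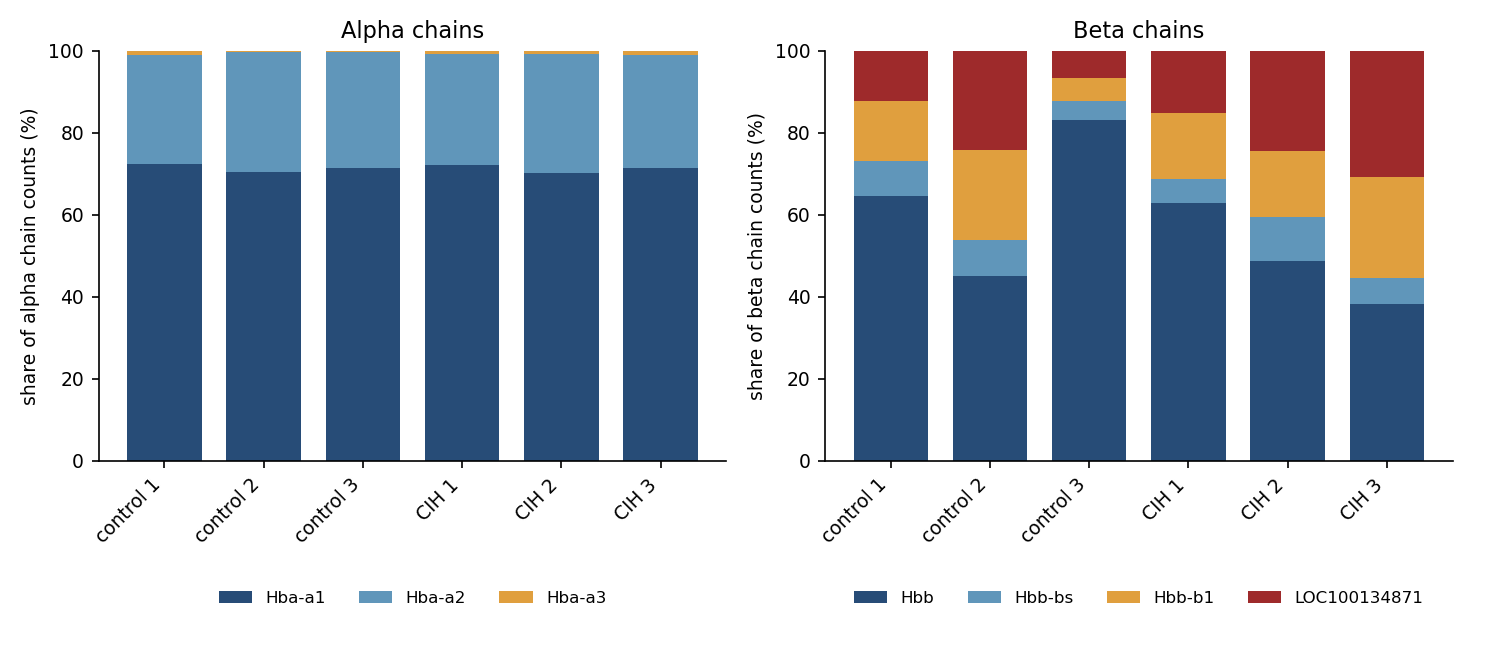
Share of each gene in the alpha chain counts (left) and the beta chain counts (right) of each RNA library, in percent of estimated counts. Hba-a1 holds 70.1% to 72.4% of alpha chain counts in every library, whereas Hbb holds 38.3% to 83.1% of beta chain counts.

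Sums over the copies do not depend on how reads were divided among the copies summed. The 4 chosen chains together had 39.3, 25.5 and 29.0 CPM in control and 52.2, 37.9 and 22.2 CPM in CIH. CIH library 1 was highest and CIH library 3 lowest of the 6. The log2 fold change of the sum was 0.26 (SE 0.32, adjusted p = 1.00 by edgeR), and without CIH library 1 it was -0.06. Summed apart, the beta chains Hbb and Hbb-b1 gave 0.25 (SE 0.38) and the alpha chains Hba-a2 and Hba-a3 gave 0.26 (SE 0.30). A sum over 7 adult chain genes, which takes in Hba-a1, Hbb-bs and LOC100134871 and was chosen after seeing the data, had 103, 67.8 and 68.0 CPM in control and 129, 101 and 59.9 CPM in CIH. It made up 0.00592% to 0.0134% of a library's counts. Its log2 fold change was 0.28 (SE 0.30, 95% interval -0.43 to 1.00), and 0.01 without CIH library 1. Alpha chains exceeded beta chains in every library, by 3.88 to 4.61-fold in control and 3.69 to 4.38-fold in CIH on the TPM scale.

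**Figure D3:**
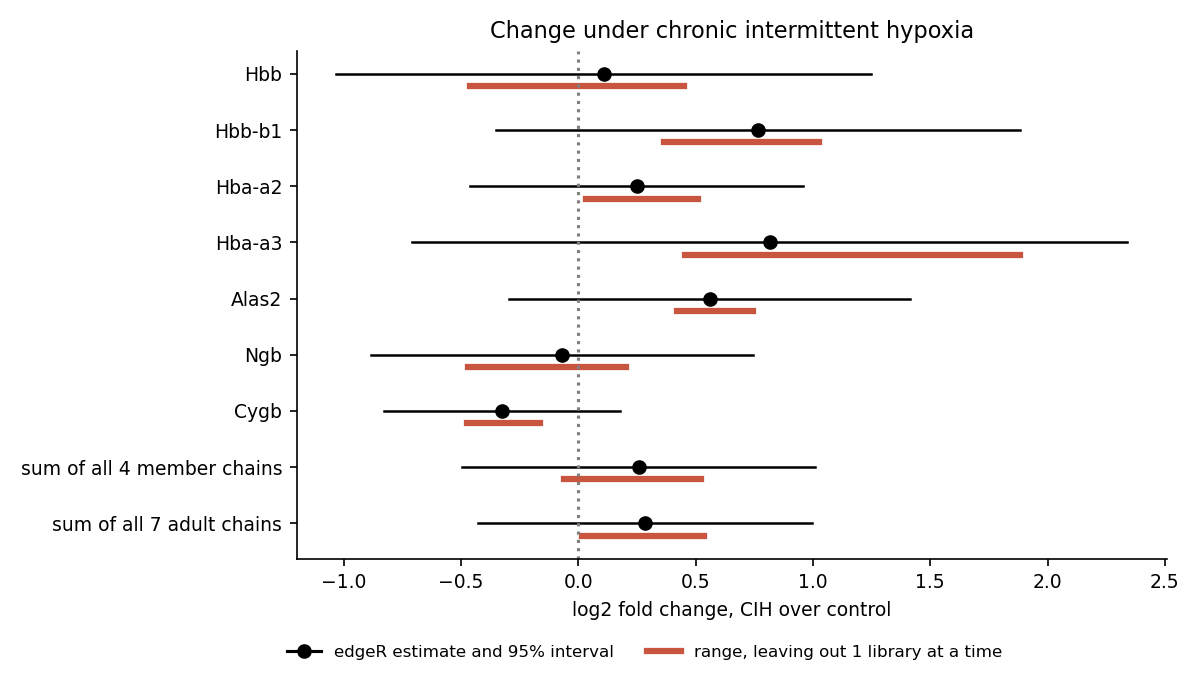
log2 fold change (CIH over control) of the 7 genes, of the sum of the 4 chosen chains and of the sum of 7 adult chains: points and black lines are the edgeR estimate and its 95% interval, red bars the range of the estimate when 1 library at a time is left out. Each interval includes 0, and of the red bars drawn, those of Hbb, Ngb and the sum of 4 chains cross 0.

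Alas2, the red cell form of the enzyme that starts haem synthesis, rested on 7, 11 and 9 counts in control and 13, 15 and 10 in CIH. At 0.348, 0.549 and 0.417 CPM in control and 0.729, 0.711 and 0.506 CPM in CIH, CIH libraries 1 and 2 lay above every control and CIH library 3 below control library 2. The log2 fold change was 0.56 (SE 0.36, 95% interval -0.29 to 1.41). In the authors' TPM the same libraries gave 0.39, 0.61 and 1.61 in control and 2.28, 1.65 and 1.55 in CIH. There control library 3 overlapped the CIH libraries. A count of Alas2 was worth 0.0555 TPM in control library 2 and 0.179 TPM in control library 3, a 3.23-fold range over the libraries, where each of the other 6 genes ranged 1.21 to 1.27-fold. On the log2(TPM + 0.1) scale the estimate was 1.18, and on the log2(TPM + 1) scale 0.64. The exact 95% Poisson intervals of the lowest count of Alas2, 7 (2.81 to 14.4), and of its highest, 15 (8.40 to 24.7), overlap, though neither count lies inside the interval of the other.

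The other genes of haem synthesis were expressed at moderate levels and did not pass the test. Of 13 fixed genes, 13 were tested, 7 with higher and 6 with lower fitted levels in CIH, and 0 were called; the median was 0.01. Alas1, the form of the first enzyme used outside red cells, had 34.7, 30.8 and 32.1 CPM in control and 32.7, 38.5 and 37.9 CPM in CIH, with a fitted log2 fold change of 0.16 (SE 0.11). The mitochondrial carrier genes Slc25a39 and Slc25a38 stood at -0.19 (SE 0.12) and 0.11 (SE 0.13), and the decarboxylase gene Urod at -0.14 (SE 0.15). Genes of haem breakdown and scavenging were 5 higher and 8 lower of 13 tested, with 0 called and a median of -0.04. The biliverdin reductase gene Blvrb stood at -0.27 (SE 0.15), the haem transporter gene Slc48a1 at 0.17 (SE 0.10) and the haptoglobin gene Hp at -0.38 (SE 0.31).

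Beyond globin and Alas2, few red cell genes were measurable. Of 28 listed membrane, enzyme and regulator genes, 12 were tested, and 15 of the 16 others had at most 8 counts in any library. The untested ones include the defining red cell genes Slc4a1 (band 3, at most 6 counts), Ahsp (an alpha chain chaperone, at most 1) and Gata1 (the erythroid factor, at most 2). No gene of the list was at 0 in every library. Of the 12, 5 were higher and 7 lower in fitted level, 0 were called and the median was -0.05. The mitochondrial iron importer gene Slc25a37 stood at 0.22 (SE 0.15) and the membrane skeleton gene Epb41 at 0.41 (SE 0.34). Several of these, such as Ank1, Sptb and Car2, are also expressed in brain cells.

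Markers of vessels and of other blood cells were read in the same libraries. All 16 endothelial genes were tested, 15 with higher fitted levels in CIH, 0 called, with a median of 0.27. Of the 16, 14 were highest in CIH library 1, the library in which all 4 haemoglobin chains were highest too. The summed endothelial level was 511 to 598 CPM in control and 563 to 798 CPM in CIH. Flt1, a VEGF receptor gene, stood at 0.33 (SE 0.11), the transporter gene Slco1a4 at 0.42 (SE 0.15), and the vascular genes Erg and Pecam1 at 0.63 (SE 0.23) and 0.52 (SE 0.23). For 6 of the 16 the groups did not overlap, with CIH higher, against 3.05% of all tested genes. Flt1, Slco1a4, Erg and Pecam1 were among them. Without CIH library 1 the endothelial median was 0.0053. Pericyte and smooth muscle genes were 9 higher and 2 lower of 11, 0 called, with 10 of 11 highest in CIH library 1 and sums of 262 to 281 CPM in control and 236 to 401 CPM in CIH. Their median was 0.31, and -0.14 without CIH library 1. For 2 of these 11 genes the groups did not overlap, with CIH higher. In a bulk sample, a change in the number of cells of a type and a change in RNA per cell cannot be told apart.

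Few white cell and platelet markers had enough counts to be tested. Of 10 measured platelet genes, 3 were tested, with 1 higher and 2 lower in fitted level and 0 called; the defining platelet gene Pf4 had at most 1 count, and the sums were 3.33 to 4.89 CPM in control and 3.89 to 5.66 CPM in CIH. Of 17 white cell genes 3 were tested, with 2 higher, 1 lower and 0 called. The neutrophil gene S100a8 had at most 1 count. The white cell sums were 11.3 to 28.2 CPM in control and 13.9 to 25.5 CPM in CIH, and 13.9 CPM of control library 1 and 13.3 CPM of CIH library 3 came from Cd3e, which had at most 0.0948 CPM in the other 4. The part of vessel or blood content in the haemoglobin levels was not tested.

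**Figure D4:**
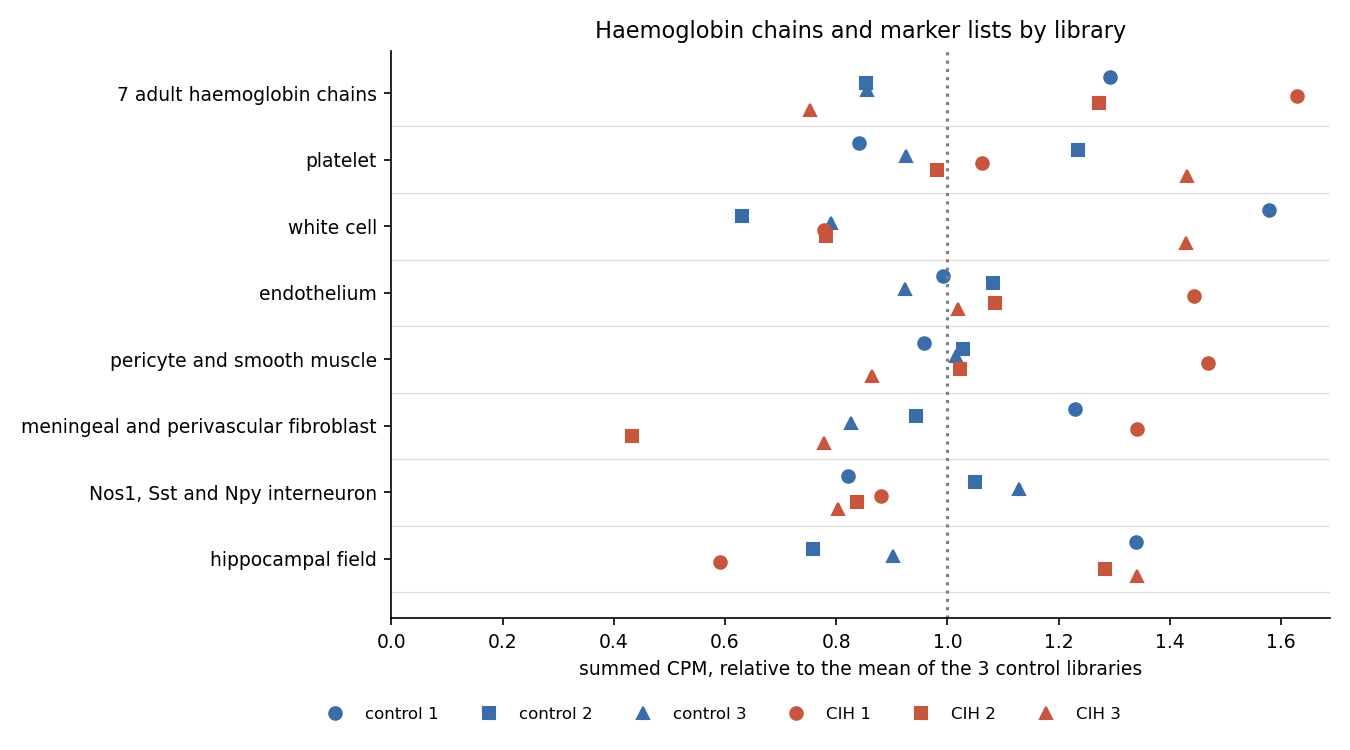
Summed CPM of the 7 adult haemoglobin chain genes and of marker lists in each RNA library, relative to the mean of the 3 control libraries (dotted line at 1). CIH library 1 is highest for haemoglobin, endothelium, pericyte and smooth muscle, and fibroblast genes, and lowest for hippocampal field genes.

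Neuroglobin binds oxygen in neurons and has been studied for protection under low oxygen. Ngb had 3.23, 3.84 and 3.34 CPM in control and 3.08, 1.94 and 4.91 CPM in CIH. The controls lay close together, between CIH library 3 above them and CIH libraries 1 and 2 below. Ngb averaged 3.47 ± 0.327 CPM without and 3.31 ± 1.49 CPM with CIH (SD, n = 3 each). The fitted log2 fold change was -0.07 (SE 0.34, 95% interval -0.88 to 0.75). The direction turned without control library 2 (0.01) or CIH library 2 (0.20), and without CIH library 3 the estimate was -0.47. Peptide genes of the hypothalamus, a region known for neuroglobin, were sparse: 5 of 12 were tested, with 2 higher, 3 lower and 0 called. Cartpt, a neuropeptide gene, stood at -2.15 (SE 0.65, adjusted p = 0.9999 by edgeR) with no overlap between the groups. Gal, the galanin gene, stood at 0.82 (SE 0.42), also with no overlap, Pomc at 0.88 (SE 0.74) and Crh at -0.23 (SE 0.40), and the oxytocin gene Oxt had at most 4 counts. Over all tested genes 3.05% stood higher in CIH without overlap, and the share standing lower is not given here. The peptide list's sums were 10.1 to 17.4 CPM in control and 6.78 to 8.19 CPM in CIH. Cartpt alone gave 12.6, 6.58 and 5.10 CPM of these sums in control and 0.504, 1.52 and 3.39 CPM in CIH. Summed without Cartpt, the list overlapped between the groups. The part of these peptide genes in the Ngb values was not tested.

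Cytoglobin had the highest count of the 7 genes per library and the narrowest interval. Cygb had 27.8, 41.4 and 37.5 CPM in control and 32.8, 30.8 and 21.4 CPM in CIH. Control libraries 2 and 3 lay above every CIH library, but control library 1 lay below CIH libraries 1 and 2. Cygb averaged 35.5 ± 6.99 CPM without and 28.4 ± 6.07 CPM with CIH (SD, n = 3 each). The fitted log2 fold change was -0.33 (SE 0.21, 95% interval -0.83 to 0.18). The estimate stayed below 0 when each library was left out in turn, from -0.47 without control library 1 to -0.16 without CIH library 3. Per length, Cygb exceeded Ngb by 6.81 to 8.97-fold in control and 3.45 to 12.6-fold in CIH.

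Genes of cells known to hold cytoglobin were read beside it. Fibroblast genes of meninges and vessel walls were 5 higher and 9 lower of 14 tested, 0 called, with a median of -0.06, which was -0.58 without CIH library 1 and 0.10 without control library 1. The matrix gene Bgn stood at 0.43 (SE 0.24) and Ptgds, the prostaglandin D synthase gene, at -0.53 (SE 0.59). Their sums were 567 to 843 CPM in control and 297 to 920 CPM in CIH. Markers of Nos1, Sst and Npy interneurons were 1 higher and 8 lower of 9 tested, 0 called, with a median of -0.32 against 0.0028 over all genes. Tacr1, the substance P receptor gene, had 6.46, 10.2 and 12.9 CPM in control and 4.43, 6.12 and 3.89 CPM in CIH, with no overlap and a log2 fold change of -1.03 (SE 0.30, adjusted p = 1.00 by edgeR). Lhx6, an interneuron transcription factor gene, stood at -0.72 (SE 0.31), Nxph1 at -0.32 (SE 0.15), and the parvalbumin gene Pvalb, without overlap, at 0.42 (SE 0.15). Of all tested genes 3.05% stood higher in CIH without overlap, and the share standing lower is not given here. As for Cygb, control library 1 was the lowest control in Tacr1, Lhx6, Nxph1, Nos1, Sst and Gad1. In Npy and Pvalb it was the highest control, and in Gad2 the middle one. Astrocyte genes were 4 higher and 5 lower of 9, 0 called, with a median of -0.02. The part of these cells in the Cygb values was not tested. The reductases that can restore the reduced globin, among them Cyb5r3 at -0.09 (SE 0.14) and Cyb5a at 0.16 (SE 0.18), were 4 higher and 3 lower of 7, 0 called, with a median of 0.01.

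Red cell miRNAs gave a readout from other libraries. miR-451 and miR-144 are made from neighbouring hairpins, 89 bases apart at chr10:63459397-63459640 (GRCr8, plus strand), and are known as markers of red cells and their precursors. Their mature sequences from RefSeq follow, 5′ to 3′, with the seed (bases 2 to 8), which pairs with target mRNAs, in capitals; no seed is shared among them.
miR-451-5p: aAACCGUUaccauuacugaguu
miR-144-3p: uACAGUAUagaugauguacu
miR-144-5p: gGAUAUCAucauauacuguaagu

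miR-451-5p had 1347, 479 and 912 CPM in control and 1724, 656 and 1846 CPM in CIH. CIH libraries 1 and 3 lay above every control, and CIH library 2 lay between the controls. The log2 fold change was 0.63 (SE 0.52, adjusted p = 0.969 by edgeR). miR-144-3p had 41.9, 16.3 and 134 CPM in control and 165, 53.4 and 230 CPM in CIH, in which CIH libraries 1 and 3 again lay above every control, a log2 fold change of 1.22 (SE 0.86). Without 1 small RNA library, miR-451-5p ranged from 0.32 (without control library 2) to 1.08 (without control library 1). For miR-144-3p the range was 0.77 (without control library 2) to 2.30 (without control library 3). miR-144-5p, the other arm of that hairpin, rested on 8 to 31 counts and stood at 0.11 (SE 0.60), and miR-486, a miRNA of red cells and muscle, at 0.09 (SE 0.28).

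**Figure D5:**
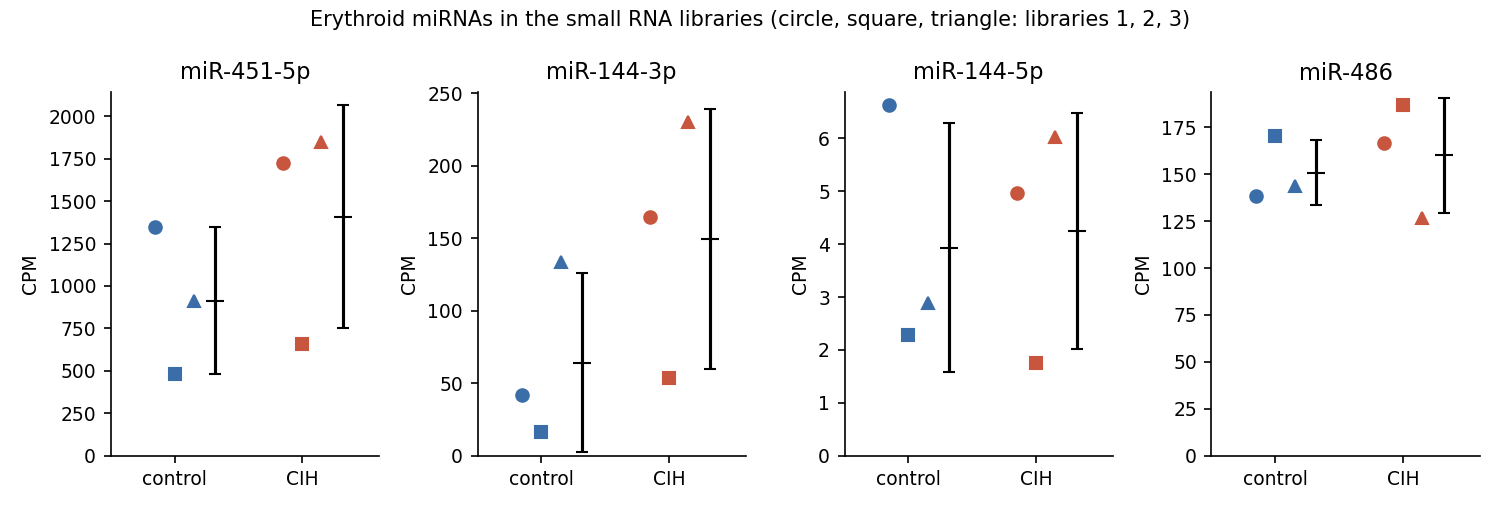
CPM of 4 erythroid miRNAs in each small RNA library, with the mean and SD of 3 libraries per group; each panel has its own linear axis from 0. miR-451-5p and miR-144-3p were lowest in control library 2 and then, for miR-451-5p, in CIH library 2, and highest in CIH library 3.

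The numbers of RNA and small RNA libraries are not said to mark the same animals, so the sets were not paired. CIH library 3 was the lowest of the RNA libraries in Hba-a2 and Hbb, and the small RNA library of that number was the highest in miR-451-5p. Among miRNAs of white cells, platelets and endothelium, miR-150-5p stood at 0.18 (SE 0.19), miR-142-3p at 0.06 (SE 0.38), miR-142-5p at 0.12 (SE 0.40), miR-150-3p at 0.18 (SE 0.38), miR-223-3p at -0.05 (SE 0.35), and the endothelial miR-126a-3p and miR-126a-5p at 0.06 (SE 0.10) and 0.18 (SE 0.24). Of these 11 tested miRNAs, 10 had higher fitted levels in CIH, against 362 of all 715 tested. Both arms of the miR-144, miR-142, miR-150 and miR-126a hairpins are among the 11, so the 11 are not independent. edgeR called 0 of the 11 and 0% of 715 miRNAs; over all miRNAs 17 had an unadjusted p under 0.05, and DESeq2 called 2. For 0 of the 11 did the groups stand apart, against 4.2% of all miRNAs higher in CIH without overlap.

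As a description of likeness, each gene was set beside 14783 or 14784 other genes with a mean log2 CPM above 1 by Pearson's r over the 6 RNA libraries, with no test. The gene most like Hba-a2 was its near copy Hba-a1 (r = 0.987). For the others the nearest were Enkur for Hbb (0.994), Nop53 for Hbb-b1 (0.998), Ttc17 for Hba-a3 (0.997), Prkcz for Alas2 (0.983), Mrpl42 for Ngb (0.992) and the locus BGIG10116_36523 for Cygb (0.990). With only 6 libraries, between 27 genes (Hbb) and 267 genes (Cygb) had r above 0.9. Next came Septin10 and Zscan20 for Hbb, Srebf1 and the locus BGIG10116_38308 for Hbb-b1, Rasgrp3 and Ptprk for Hba-a2, LOC100360522 and Snapin for Hba-a3, Mitf and Mtus2 for Alas2, Sms and Ptrh2 for Ngb, and H2ax and Pfdn2 for Cygb.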

How the data were processed

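Per the labels' protocols, TRIzol was used for RNA extraction and BGI machines for sequencing. Rnor_6.0 is the build in the submitters' processing notes, which also name HISAT2 2.2.0, Bowtie2 2.2.5 and RSEM 1.2.12 without saying what each did. No source used here names the annotation, the strand setting or the miRNA counter. Per the file headers, the deposited RNA table holds estimated counts (16.0% of values not whole, rounded before testing) and TPM made by the authors, and the deposited small RNA table holds read counts. A further 12 columns of values per sample and 10 of group means were not used.

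Samples were grouped by title. CIH was compared with control over whole tables with edgeR 4.0.16 in R 4.3.3 (quasi-likelihood F test, TMM, filterByExpr, Benjamini-Hochberg adjustment, threshold 0.05); SE comes from the fold change and F statistic. Lists were described by counts and medians. The alternatives were RLE factors, no filter, DESeq2 1.42.0, limma 3.58.1 on log2(TPM + 1) or log2(TPM + 0.1), the replicate number as a block, leaving out each library, and summed copies. The code was tested on simulated counts. Likeness used log2 CPM with a prior count of 2.

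The genes and lists were chosen with earlier results of these data known. The text names all 7 genes, up to 4 tested members of each list with the smallest p, the 3 nearest genes by likeness, and every tested miRNA of the lists. Adgb, Mb, Camk2a, Prox1, Zbtb20, Ank1, Sptb, Car2, Slc4a1, Ahsp, Gata1, Pf4, S100a8, Cd3e, Oxt and Cyb5r3 were named for their role or after their values were seen. Nos1, Sst, Npy, Gad1, Gad2, Cd3g, Cd8a, LOC103694855 and LOC103694857 were named after their values were seen. A few genes that the rule would name are not reported here. RefSeq tables of GRCr8 gave names and sequences: 7 of 7 genes matched by identifier, 6 of 7 had a promoter window, and 11 of 18 listed miRNA names had a sequence. Alignments used Biopython 1.88, and figures matplotlib 3.10.9 in Python 3.11.15.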

Additional observations from a re-analysis of the deposited data

How the results depend on the processing

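Over 84 alternative values of the 7 genes, 78 kept their direction and 6 reversed, and none passed the threshold (adjusted p from 0.882 to 1.00). Hbb reversed with limma on log2(TPM + 1) (-0.0078) and on log2(TPM + 0.1) (-0.0099). Leaving out 1 library gave Hbb from -0.46 to 0.45 and Ngb from -0.47 to 0.20. For sums of chains it gave -0.22 to 0.53 for Hbb with Hbb-b1, -0.063 to 0.52 for the 4 chains, and -0.0027 to 0.51 for alpha chains with Hba-a1. The cause was not tested.

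Genes past the threshold numbered 0 with edgeR, 10 with DESeq2, 1 with limma on log2(TPM + 1), 1 on log2(TPM + 0.1), and 0 to 1 without 1 library; without control library 3 it was Wbp11 and without CIH library 2 Wbp11l1. For miRNAs they numbered 0, then 2 without the low-count filter, 2 with DESeq2 and 0 to 1 without 1 library. Among 110 alternative values of the 11 miRNAs 94 kept their direction. miR-142-3p reversed without the filter (-0.011) and with the replicate block (-0.027), and miR-126a-3p without the filter (-0.0063). Leaving out 1 library gave ranges of -0.38 to 0.27 for miR-142-3p, -0.12 to 0.48 for miR-142-5p, -0.21 to 0.76 for miR-144-5p, -0.11 to 0.42 for miR-150-3p, -0.021 to 0.14 for miR-126a-3p, -0.27 to 0.33 for miR-223-3p and -0.042 to 0.22 for miR-486.

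No pairing by replicate number was seen: deviations from the group means, compared between libraries of equal number, had r of -0.222, -0.046 and -0.176 (RNA) and 0.122, -0.149 and -0.034 (small RNA). With the replicate block 0 genes and 0 miRNAs passed, and Hbb-b1 stood at 0.92 and Cygb at -0.33. Among 168 alternative list medians 5 moved by more than the spread between libraries. Alas2 and Hba-a3 rest on 3 to 15 counts per library.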
